A study of Mus musculus with 4 samples.

Results

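The 10 genes of melanin and melanosome biology followed here, of 32285 genes in the count matrices, were read in single cells of the mouse eye: Mitf, Tyr, Tyrp1, Dct, Pmel, Mlana, Slc45a2, Oca2, Gpnmb and Trpm1. They were chosen by gene symbol, and all 10 were found. Levels were read in barcodes of the retinal pigment epithelium (RPE), the pigmented cell layer behind the photoreceptors, and in the other cell types of the same libraries. A barcode is the droplet tag that stands for 1 cell. Droplet single-cell RNA sequencing (10x Genomics) had been run on RPE and choroid scraped from the posterior eye of wild-type mice (WT) and of mice lacking the very low density lipoprotein receptor (Vldlr-/-), each at 1 month and at 2 months of age. Each of the 4 groups was 1 library, and strain, sex and the number of animals pooled are not given in the sources used here. No difference below therefore has a replicate error, no test was run, and the intervals are exact 95% intervals that cover counting error only. The 1-month and 2-month libraries were counted with different versions of the counting software, so age and software cannot be told apart, and the genotypes are compared within an age.

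Melanin is made inside melanosomes, membrane-bound organelles related to lysosomes. Pmel builds the amyloid fibrils of the young melanosome, on which the polymer is laid down; Tyr, Tyrp1 and Dct catalyse its synthesis from tyrosine, transporters such as Slc45a2 and Oca2 keep the lumen fit for tyrosinase, and the transcription factor Mitf drives many of these genes. The RPE derives from the neural tube and makes most of its pigment before and shortly after birth, while melanocytes of the choroid derive from the neural crest.

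MITF binds the E-box letters CATGTG, so the bases just before the start of these genes are shown here as sequence context. RefSeq promoter windows (GRCm38.p6) were found for 7 of the 10 genes, in 10 windows of 250 bases before a start site. Windows for Pmel, Mlana and Slc45a2 were not used here. CATGTG on either strand (CACATG on the other) lay in a window of 5 of these 7 genes, and in 12.3% of all 32851 windows of that length. The palindrome CACGTG lay in a window of 1 of them (Trpm1) and in 6.02% of all windows. A count of genes and a share of windows are unlike measures, since Mitf and Trpm1 have more than 1 window each. Of the 10 windows of these genes, 6 held CATGTG or CACGTG. Each line gives 30 bases in the direction of the gene, 5′ to 3′, with the matched letters in capitals:
Tyr: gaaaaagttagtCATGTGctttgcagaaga
Tyrp1: tggggagggagtCATGTGctgcctagtagt
Dct: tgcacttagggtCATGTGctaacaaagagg
Trpm1: ccaaatcctcatCATGTGcccaccccaaac
Oca2: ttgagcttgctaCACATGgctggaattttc

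The Tyr site lies at chr7:87493516-87493545 (minus strand) and its capitals begin 21 bases before the RefSeq start. The Tyrp1 site (chr4:80834155-80834184, plus strand) begins 46 bases before the RefSeq start, which itself lies 90 bases inside the gene as GENCODE M21 draws it. The Dct site shown (chr14:118052379-118052408, minus strand) begins 150 bases before its start, and Dct has another match at 232 bases. The Trpm1 site (chr7:64153682-64153711, plus strand) begins at 141 bases and the Oca2 site (chr7:56239561-56239590, plus strand) at 186 bases. Read with a pair of bases on each side, the Tyr site is GTCATGTGCT, a stretch chosen after the sequences were seen. The 3 melanin enzymes Tyr, Tyrp1 and Dct all hold these 10 letters, which occur on either strand in 51 of the 32851 windows (0.155%). No window of Mitf or Gpnmb held CATGTG or CACGTG, which says only that these letters are not in those windows.

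After filters on genes per barcode and mitochondrial share and removal of 26 barcodes marked as doublets, 6529 barcodes remained, of which 2460 formed 5 clusters with RPE markers (RPE-like, "RPE" in the plots). They numbered 235 in WT and 165 in Vldlr-/- at 1 month, and 1453 and 607 at 2 months. The 10 genes were kept out of the clustering. Of the 10 RPE markers, 9 were detected at 1 month and 10 at 2 months. The median RPE-like barcode carried 2077 and 1809 unique molecules (UMIs) at 1 month and 8279 and 9420 at 2 months. Vldlr itself stood at 130 and 10.7 CPM (counts scaled to a total of 1000000 per sum) in WT and Vldlr-/- RPE-like sums at 1 month and at 177 (WT) and 27.0 CPM (Vldlr-/-) in the older pair. 1 kept barcode was shared between libraries. Rod markers, RNA of the neighbouring photoreceptors, came to 546 and 847 CPM in RPE-like sums at 1 month and to 328 and 253 CPM at 2 months, with the part of photoreceptor RNA in the ratios below not tested. Subtracting from each gene its lowest level in another cell type of the same library, as a measure of free RNA, moved 1 ratio of the 10 genes beyond its counting interval (Mitf at 2 months, given below).

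None of the 10 genes was 2-fold apart between genotypes in RPE-like barcodes at either age. At 1 month 9 of the 10 had a higher value in Vldlr-/-, beside 50.1% of all tested genes. That count was 8 with TMM scaling, where the log2 ratio of Gpnmb was -0.08. It was 7 with RPE taken by markers, where Gpnmb was at -0.14 and Oca2 at -0.01. Pmel (1.74-fold), Trpm1 and Dct were among those whose 1-month counting interval left out equality. At 2 months the genes went apart, with 4 of the 10 higher in Vldlr-/-, beside 59.4% of all tested genes. Pmel (0.553-fold), Mlana, Gpnmb, Tyrp1 and Trpm1 then had lower values in Vldlr-/-, and Mitf, Slc45a2 and Dct higher ones, with intervals that left out equality. Pmel, Tyrp1 and Trpm1 thus lay on opposite sides of WT at the 2 ages. Of the 3645 genes tested at 1 month, 3.57% had a value in Vldlr-/- that was 2-fold higher or more, and 2.8% one that was 2-fold lower or more. At 2 months these shares were 3.3% and 1.05% of 11856 genes. A counting interval wholly above equality was seen for 5 of the 10 genes at 1 month, against 9.33% of all tested genes, and for 3 of 10 at 2 months, against 21.4%. An interval wholly below was seen for 0 of 10 at 1 month (8.75% of all genes) and for 5 of 10 at 2 months (11.1%). Whether an interval leaves out equality depends on the UMIs counted for a gene, and no share matched for depth was computed. The median log2 ratio of Vldlr-/- to WT over the 10 genes was 0.41 at 1 month and -0.12 at 2 months, beside 0.00 and 0.07 over all tested genes. All 10 genes reached the minimum of 30 UMIs over both libraries at both ages.

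Mitf (ENSMUSG00000035158, GRCm38 chromosome 6, 97807052 to 98021349, plus strand), the regulator, stood at 64.9 CPM in WT and 71.9 CPM in Vldlr-/- RPE-like barcodes at 1 month, from 39 and 27 UMIs. At 2 months it stood at 103 and 128 CPM. The intervals of the 1-month pair overlapped broadly (log2 ratio 0.16, -0.62 to 0.89), while the 2-month pair was apart by more than counting error (0.31, 0.20 to 0.43). That difference depended on the barcodes and the background taken: it was 0.04 without barcodes rich in the nuclear transcript Malat1, and 0.02 with free RNA subtracted (103 and 104 CPM). The subtraction used unlike cell types, since the lowest WT class was rod-like (0 UMIs of Mitf in 36 barcodes) and the lowest Vldlr-/- class endothelial-like (23.4 CPM), with rod-like barcodes there (22) under the minimum of 30.

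Tyr (ENSMUSG00000004651, chromosome 7, 87424771 to 87493512, minus strand) encodes tyrosinase, the rate-limiting enzyme of melanin synthesis. It was counted at 299 CPM in WT and 416 CPM in Vldlr-/- at 1 month. In the 2-month pair it stood at 310 and 302 CPM. The Vldlr-/- library of 1 month was thus the highest of the 4, and the other 3 lay within a narrow band. The log2 ratio was 0.47 (0.15 to 0.79) at 1 month and -0.04 (-0.11 to 0.03) at 2 months.

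Tyrp1 (ENSMUSG00000005994, chromosome 4, 80834123 to 80851719, plus strand), a tyrosinase-related protein that stabilises tyrosinase, stood at 314 and 413 CPM at 1 month, then at 299 and 255 CPM in the 2-month pair, WT first. Its ratio was above equality at the younger age (0.39, 0.08 to 0.71) and below it at the older (-0.23, -0.31 to -0.16). Dct (ENSMUSG00000022129, chromosome 14, 118012790 to 118052244, minus strand), dopachrome tautomerase, stood at 2709 and 3664 CPM at 1 month, then at 1810 and 1984 CPM in the 2-month pair. Its log2 ratio was 0.44 (0.33 to 0.54) and 0.13 (0.10 to 0.16). At 2 months 1 Vldlr-/- barcode gave 1198 of 16026 Dct UMIs (7.48%) and the richest WT barcode gave 2.20%. The counting interval does not cover such an uneven spread, and the ratio without these barcodes was not computed. With barcodes thinned to 1000 UMIs the 2-month ratio was 0.20, and as a mean over barcodes it was 0.09. Within Malat1-rich barcodes the 2-month ratio was -0.03 (-0.08 to 0.01) and within Malat1-poor ones 0.06 (0.02 to 0.09). It was found in 87.3% to 94.1% of RPE-like barcodes of a library.

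Pmel (ENSMUSG00000025359, chromosome 10, 128704195 to 128720238, plus strand), the fibril protein, stood at 353 CPM in WT and 615 CPM in Vldlr-/- at 1 month. In the 2-month pair it stood at 397 and 220 CPM. WT was the lower library at 1 month and the higher one at 2 months, with log2 ratios of 0.80 (0.53 to 1.08) and -0.85 (-0.93 to -0.78). Mlana (ENSMUSG00000024806, chromosome 19, 29697824 to 29708634, plus strand), a melanosomal membrane protein that acts with Pmel, stood at 176 and 131 CPM at 1 month, then at 124 and 87.7 CPM in the 2-month pair. Mlana was the one gene of the 10 with a lower value in Vldlr-/- at both ages, at -0.43 (-0.95 to 0.07, which includes equality) and -0.50 (-0.63 to -0.38). At 1 month 1 WT barcode gave 27 of the 106 WT UMIs (25.5%), and with barcodes thinned to 1000 UMIs the ratio was 0.34, so the 1-month direction is not settled. Mlana lies 2.44 Mb from Vldlr on the same chromosome.

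Slc45a2 (ENSMUSG00000022243, chromosome 15, 11000721 to 11029233, plus strand) is a melanosomal transporter whose loss causes a form of albinism. It was the most thinly counted of the genes, with 18 and 20 UMIs at 1 month (29.9 and 53.3 CPM) and 361 and 285 UMIs at 2 months (23.0 and 35.3 CPM). The ratio was close in size at both ages, 0.83 (-0.16 to 1.84) and 0.62 (0.39 to 0.85), but the 1-month interval includes equality. Oca2 (ENSMUSG00000030450, chromosome 7, 56239760 to 56536518, plus strand), a melanosomal membrane transporter, stood at 160 and 173 CPM at 1 month, then at 281 and 292 CPM in the 2-month pair. Its genotypes were within counting error at both ages (0.12, -0.36 to 0.59, and 0.06, -0.02 to 0.13).

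Gpnmb (ENSMUSG00000029816, chromosome 6, 49036546 to 49070929, plus strand) is a Pmel-related glycoprotein of melanosomes and lysosomes. It stood at 241 and 248 CPM at 1 month, then at 287 and 232 CPM in the 2-month pair, with ratios of 0.04 (-0.35 to 0.42) and -0.30 (-0.38 to -0.23). Trpm1 (ENSMUSG00000030523, chromosome 7, 64153835 to 64269775, plus strand), a cation channel of melanocytes and retinal bipolar cells, stood at 180 and 293 CPM at 1 month, then at 168 and 145 CPM in the 2-month pair. Like Pmel and Tyrp1 it was above equality at 1 month (0.71, 0.31 to 1.10) and below it at 2 months (-0.21, -0.31 to -0.11). At 1 month 1 barcode gave 43 of the 108 UMIs in WT (39.8%) and 1 gave 38 of 110 in Vldlr-/- (34.5%), so that the 1-month interval is too narrow as a measure of precision.

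**Figure D1:**
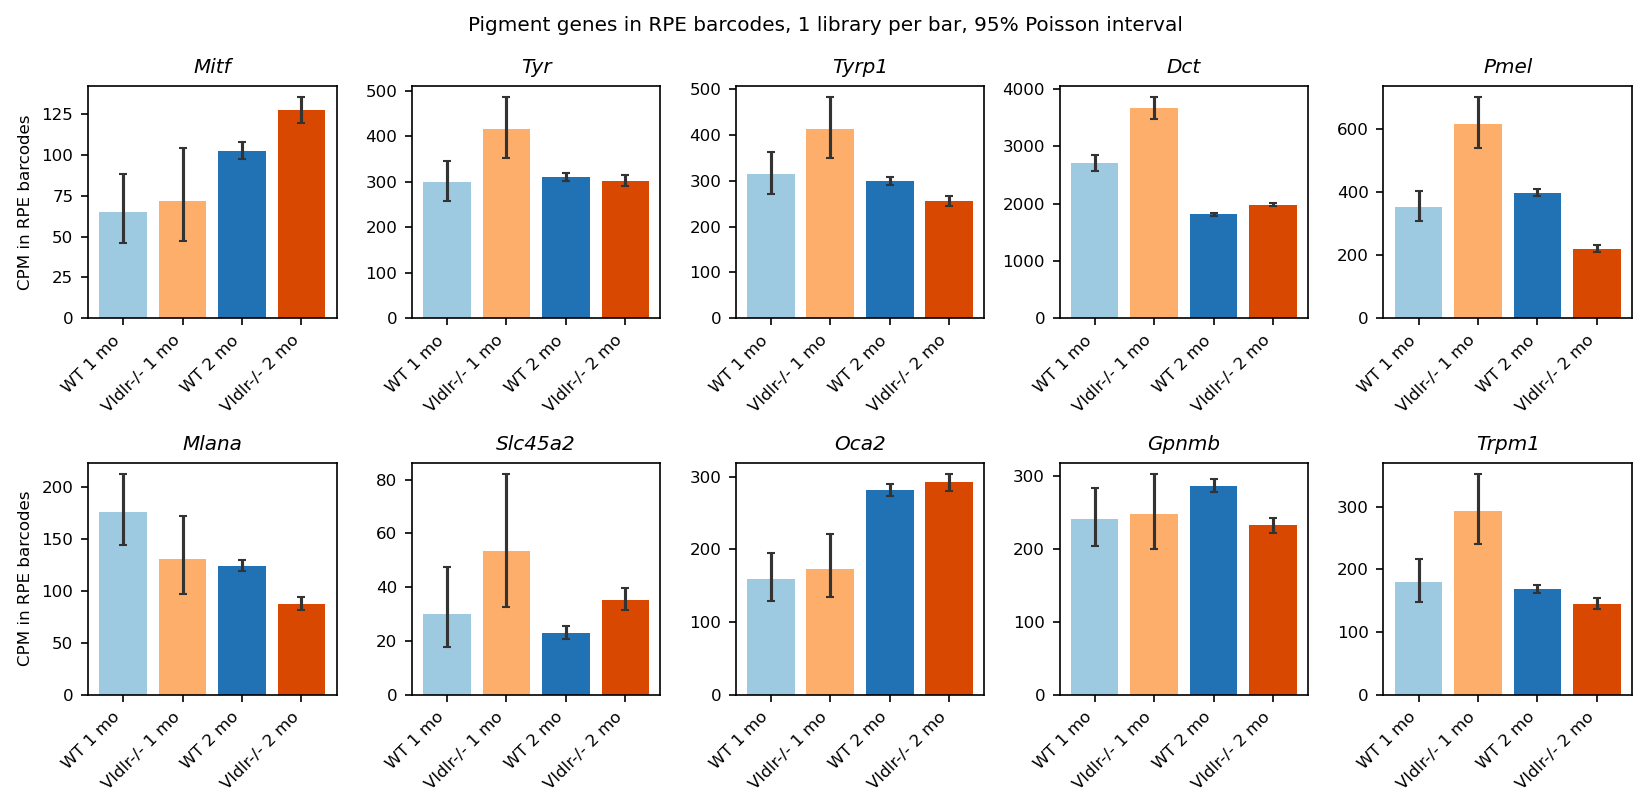
Level of each gene in RPE-like barcodes (vertical axis, CPM, a separate scale per gene starting at 0), with 1 bar per library and its 95% Poisson interval. For Pmel the Vldlr-/- bar is the taller one at 1 month (615 against 353 CPM) and the shorter one at 2 months (220 against 397 CPM), while Oca2 bars of 1 age are within counting error.

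Around these genes, a list of 53 further genes of melanosome biogenesis, pumps and channels, transport and regulation was read the same way, and 52 were found by symbol. At 1 month 17 reached 30 UMIs, with a median log2 ratio of 0.27, and at 2 months 44 did, with a median of 0.08. None of them was 2-fold apart at either age. An interval above equality was seen for 3 of 17 and 11 of 44, and one below for 0 of 17 and 8 of 44, beside the shares of all genes given above. In the biogenesis group, 17 of 22 tested genes (77.3%) had a higher value in Vldlr-/- at 2 months, beside 59.4% of all tested genes. The group's leading members were Rab38, a small GTPase that carries cargo to melanosomes, at 0.72 (0.35 to 1.08), and Lyst, which controls the size of lysosome-related organelles, at 0.40 (0.14 to 0.66). Of the pumps and channels Mfsd12, a cysteine importer of melanosomes, stood at 0.72 and the chloride exchanger Clcn7 at -0.38. Of the transport genes Rab17 (-0.91, an interval that includes equality) and Mlph, the melanophilin that links melanosomes to myosin (-0.75), had lower values. Of the regulators Pax6, an eye-field factor, stood at -0.70 and Sox9, which acts with Mitf in RPE, at 0.64. Sox9 also had a higher value at 1 month (0.47, 0.05 to 0.88).

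Pmel RNA was spread very unevenly over RPE-like barcodes. In the 4 libraries 72.7% to 80.9% of RPE-like barcodes held no Pmel UMI. The first 50% of all Pmel UMIs came from 8 of 235 barcodes in WT and 7 of 165 in Vldlr-/- at 1 month, and from 14 of 1453 and 5 of 607 at 2 months. The counting intervals of Pmel above treat UMIs as independent and are therefore too narrow as a measure of precision. Barcodes with at least 500 CPM and at least 2 UMIs of Pmel were set apart as Pmel-rich, limits chosen after the values were seen. They made up 11.9% of RPE-like barcodes in WT (8.07% to 16.8%) and 16.4% in Vldlr-/- (11.1% to 22.9%) at 1 month. At 2 months they made up 9.70% (8.23% to 11.3%) and 5.77% (4.05% to 7.93%). They held 84.0%, 93.5%, 92.0% and 80.1% of the Pmel UMIs in WT and Vldlr-/- at 1 month and WT and Vldlr-/- at 2 months. The limit runs through a continuous range: 46 and 22 barcodes of the 2-month libraries lay at 250 to 500 CPM and 53 and 14 of the Pmel-rich ones under 1000 CPM. With every barcode thinned to 1000 UMIs, the share holding 2 or more Pmel UMIs was 8.5% and 11.5% at 1 month (200 and 122 barcodes) and 5.02% and 3.55% at 2 months (1414 and 563 barcodes).

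**Figure D2:**
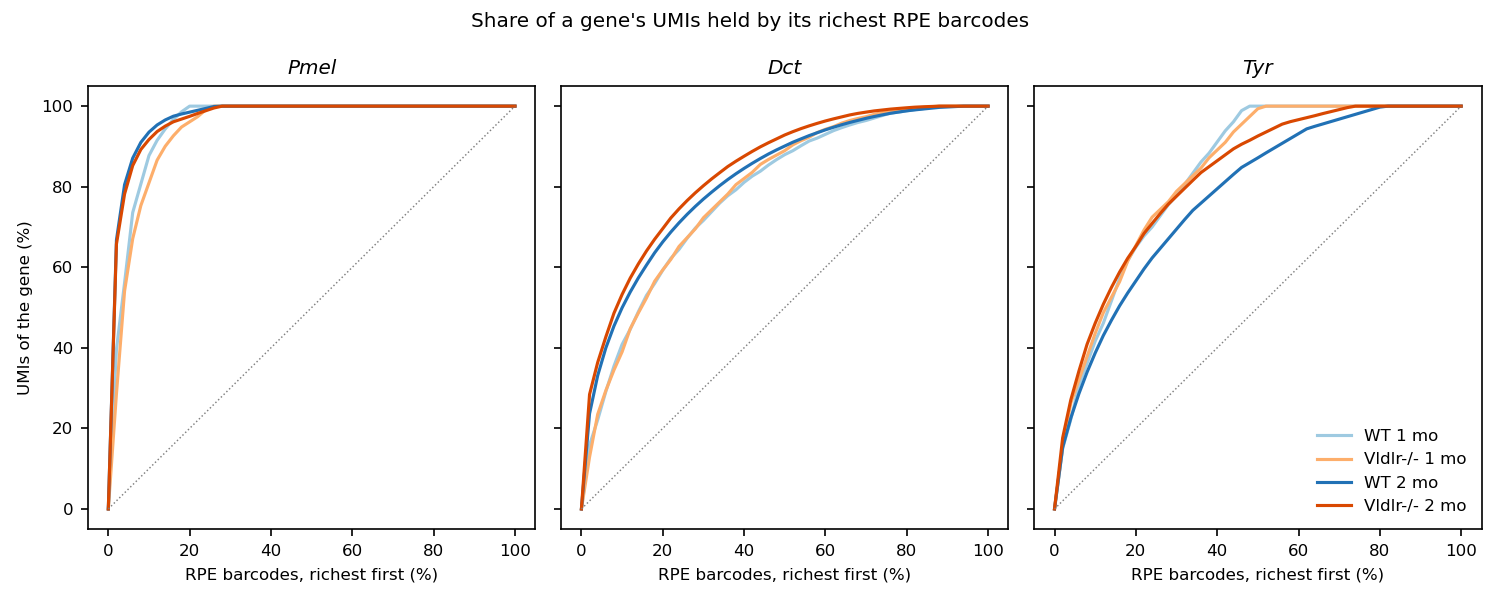
Share of a gene's UMIs (vertical axis, percent) held by the richest RPE-like barcodes (horizontal axis, percent, ranked for each gene and library), for Pmel, Dct and Tyr, with a dotted line for an even spread. The Pmel curves climb almost at once, with 50% of the UMIs in 0.964% of WT and 0.824% of Vldlr-/- barcodes at 2 months, while the Dct and Tyr curves rise gradually.

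The Pmel-rich barcodes held more of most other pigment genes too, in all 4 libraries. Pmel chose these barcodes, so its own difference is no finding, and the other genes are given as a description. Against the remaining RPE-like barcodes of the same library, Dct was 2.51-fold to 4.54-fold higher, Tyrp1 2.22-fold to 2.89-fold, Mlana 2.88-fold to 6.28-fold and Trpm1 2.21-fold to 10.7-fold. Gpnmb was 1.77-fold to 5.32-fold higher. Slc45a2 was 2.20-fold to 3.80-fold higher, but both 1-month values rest on 5 and 7 UMIs in Pmel-rich barcodes and have intervals that include equality. The rate-limiting enzyme gene Tyr differed little, at 1.16-fold to 1.58-fold, as did Oca2 (1.05-fold to 1.95-fold), and Mitf lay between 0.893-fold and 1.48-fold. Of the 3 genes with the 10 letters shown above, Dct and Tyrp1 were at least 2-fold higher in all 4 libraries and Tyr in 0. Any link between these letters and the ratios was not tested. In WT at 2 months Trpm1 stood at 673 CPM in Pmel-rich and 81.7 CPM in other RPE-like barcodes, and Tyr at 380 and 298 CPM.

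Ranked by this ratio among the 3770 genes with at least 500 UMIs in WT RPE-like barcodes at 2 months (Slc45a2, with 361 UMIs, is placed by its ratio), Trpm1 was 3rd, Mlana 5th, Gpnmb 10th, Slc45a2 13th, Dct 17th and Tyrp1 24th, whereas Oca2 was 122nd, Mitf 250th and Tyr 663rd. The leading genes outside the pigment list were Gsta3, a glutathione transferase, Kcnab1, Igfbp6, the secreted protein Dkk3, Fam129a and Cox8b, a subunit isoform of cytochrome c oxidase. Cox8b stood at 3384 CPM in Pmel-rich and 632 CPM in other barcodes of WT at 2 months, and at 2490 and 299 CPM in Vldlr-/-. At 1 month the difference in WT was smaller, at 2744 and 1685 CPM, and Vldlr-/- had 1997 and 452 CPM. Kcnab1 and Igfbp6 had 0 UMIs in the Pmel-rich barcodes of Vldlr-/- at 1 month, beside 2 and 4 UMIs in the others.

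Markers of choroidal melanocytes had no higher level in Pmel-rich barcodes, and Pax3 was at 0 UMIs in RPE-like barcodes of all 4 libraries. Their summed level was 66.9 CPM in Pmel-rich and 123 CPM in other RPE-like barcodes of WT at 1 month, 73.4 and 114 CPM in Vldlr-/- at 1 month, 57.6 and 86.8 CPM in WT and 85.9 and 111 CPM in Vldlr-/- at 2 months. Of the 7 melanocyte markers 3 had any UMI in RPE-like barcodes of each 1-month library, 5 in WT and 6 in Vldlr-/- at 2 months, and Kit and Sox10 gave most of those UMIs. Summed RPE markers stood at 136535 and 114305 CPM, 117943 and 115448 CPM, 72149 and 73621 CPM, and 71692 and 69006 CPM in the same order. Pmel-rich barcodes were deeper than the others, with medians of 10942 and 8092 UMIs in WT and 11672 and 9389 UMIs in Vldlr-/- at 2 months.

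**Figure D3:**
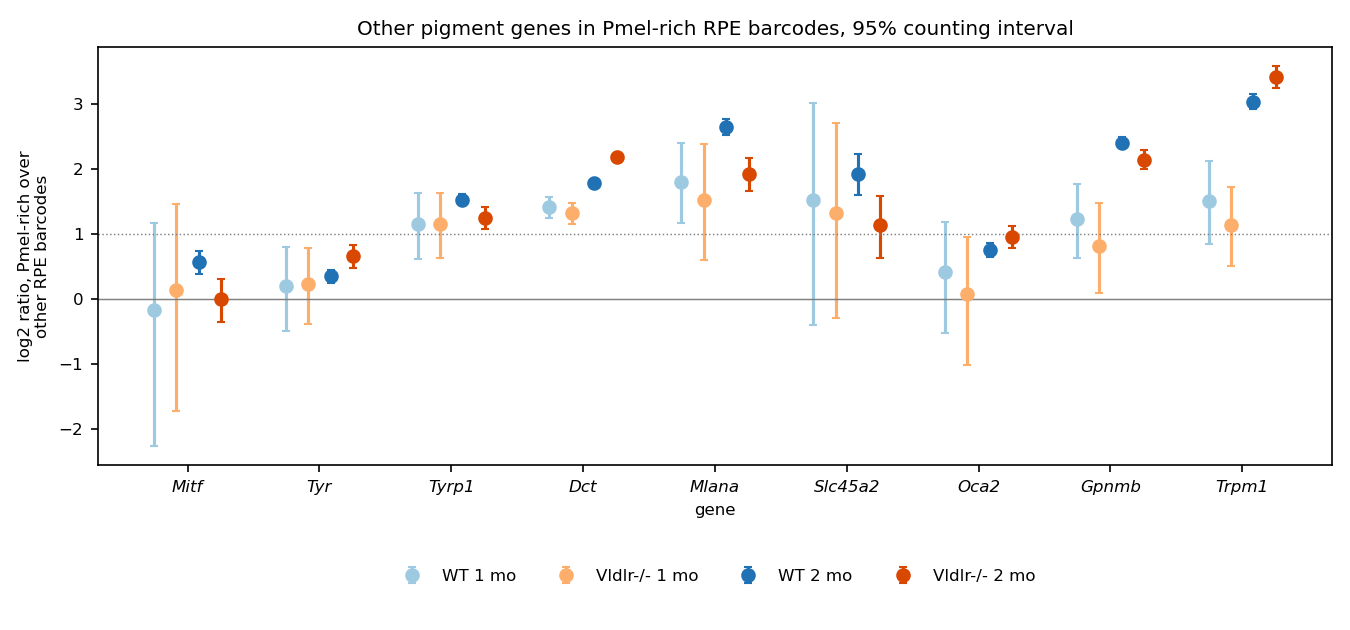
Log2 ratio of the level in Pmel-rich to that in other RPE-like barcodes (vertical axis, with 95% counting intervals) for the 9 other genes, 1 point per library. All 4 points of Tyrp1, Dct, Mlana, Slc45a2 and Trpm1 lie above the dotted 2-fold line, and all 4 points of Mitf, Tyr and Oca2 lie below it.

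The genotype ratios of several genes moved when these barcodes were left out. For Pmel, which chose them, the remaining values say nothing of the whole: they were -0.38 (-1.39 to 0.51, from 34 and 15 UMIs) at 1 month and 0.35 (0.15 to 0.55) at 2 months. Mlana at 2 months went from -0.50 to 0.03, Gpnmb from -0.30 to 0.05, Trpm1 from -0.21 to 0.00 and Tyrp1 from -0.23 to -0.03. All 4 intervals then included equality. Slc45a2 (0.98), Mitf (0.41) and Dct (0.22) kept higher values in Vldlr-/- at 2 months without them. At 1 month Tyr (0.46), Dct (0.36) and Trpm1 (0.72) did. Within the Pmel-rich barcodes the 4 genes did not share a direction at 2 months. Mlana (-0.70, -0.94 to -0.47), Tyrp1 (-0.31) and Gpnmb (-0.21) had lower values in Vldlr-/-. Trpm1 had a higher one (0.39, 0.24 to 0.52).

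**Figure D4:**
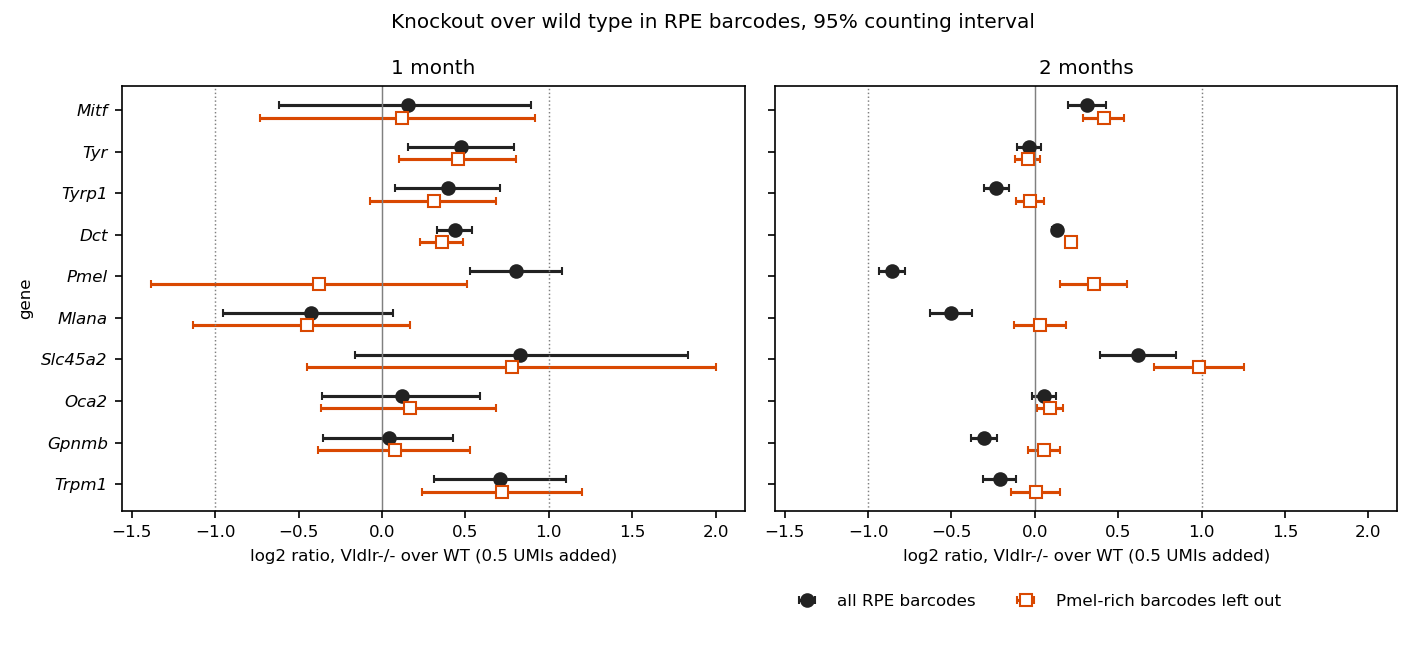
Log2 ratio of Vldlr-/- to WT in RPE-like barcodes (horizontal axis, 95% counting intervals) at 1 month (left) and 2 months (right), over all RPE-like barcodes (filled circles) and without the Pmel-rich ones (open squares), with dotted lines at 2-fold. At 2 months the squares of Mlana, Gpnmb, Trpm1 and Tyrp1 lie at or near 0.

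RPE-like barcodes of the 2-month libraries also differed in nuclear RNA, read from the nuclear transcript Malat1. Barcodes with at least 1000 CPM of Malat1 were 11.2% of RPE-like barcodes in WT and 27.8% in Vldlr-/-. Mitf was higher in them, at 235 CPM in WT and 194 CPM in Vldlr-/-, than in barcodes under that limit (68.4 and 70.2 CPM). Within the Malat1-rich barcodes the Mitf ratio was -0.27 (-0.42 to -0.13) and within the others 0.04 (-0.16 to 0.23), although over all barcodes it was 0.31. Oca2 showed the same pattern, with ratios of -0.35 and -0.22 within the 2 kinds of barcode and 0.06 over both. Tyr, at -0.04 over both, was at -0.17 (-0.29 to -0.06) in the Malat1-rich barcodes and -0.11 (-0.21 to -0.02) in the others. The lower Pmel value in Vldlr-/- at 2 months was present in both kinds (-1.47 and -1.03), as were those of Mlana (-0.92 and -0.71), Gpnmb (-0.69 and -0.43) and Trpm1 (-0.78 and -0.27). The higher Slc45a2 value was seen in the Malat1-poor barcodes (0.77, 0.47 to 1.07), while the Malat1-rich ones gave 0.11 (-0.26 to 0.49). The 5 RPE-like clusters did not all share the Pmel difference at 2 months: cluster 1 gave -1.88, cluster 10 -1.51, cluster 5 -0.66 and cluster 0 -0.51, and cluster 4, the poorest in Pmel (54.8 and 61.9 CPM), gave 0.18 (-0.30 to 0.64).

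Across cell types, 8 of the 10 genes were higher in RPE-like sums of all 4 libraries than in any of 18 sums of at least 30 barcodes of macrophage-like, fibroblast-like, endothelial-like, mural-like, rod-like, B-like and T or NK-like cells. Tyr, for example, was at 299 to 416 CPM in RPE-like cells and at most 13.7 CPM in those sums. The exceptions were Mitf and Gpnmb, whose highest sums were macrophage-like, at 330 CPM (Vldlr-/-, 2 months) and 2060 CPM (Vldlr-/-, 1 month). How many of all genes would pass this rule was not counted. Melanocyte-like cells and clusters without a cell type name were not among the 18 sums. In WT at 2 months the cluster led by Gpx3, Penk and Optc had Mlana at 202 and Trpm1 at 419 CPM, above every RPE-like sum. Its Pmel level, 543 CPM, lay within the RPE-like range (220 to 615 CPM). Without 7 Pmel-rich barcodes of that cluster, Mlana stood at 93.0 CPM, within the RPE-like range (87.7 to 176 CPM). Trpm1 then stood at 340 CPM, still above every RPE-like sum. Lymphocytes, which should lack these genes, give the level of free RNA at 1 month: Dct was at 0.826 to 12.7 CPM there and was found in 0.760% to 1.96% of barcodes at median depths of 5997 to 9514 UMIs. At 2 months the low levels elsewhere were higher, with Dct at 76.5 and 77.7 CPM in endothelial-like sums. Genes outside the list whose profile over 22 sums of 8 classes was most like the mean of the 10 were Slc39a12 (Pearson r 0.98), Slc6a20a (0.98), Ermn (0.97), Tmem72 (0.97) and Rsph10b (0.97). Sums of 1 library share depth and free RNA. Among the 10, Gpnmb (0.67) and Mitf (0.72) were least like that mean.

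**Figure D5:**
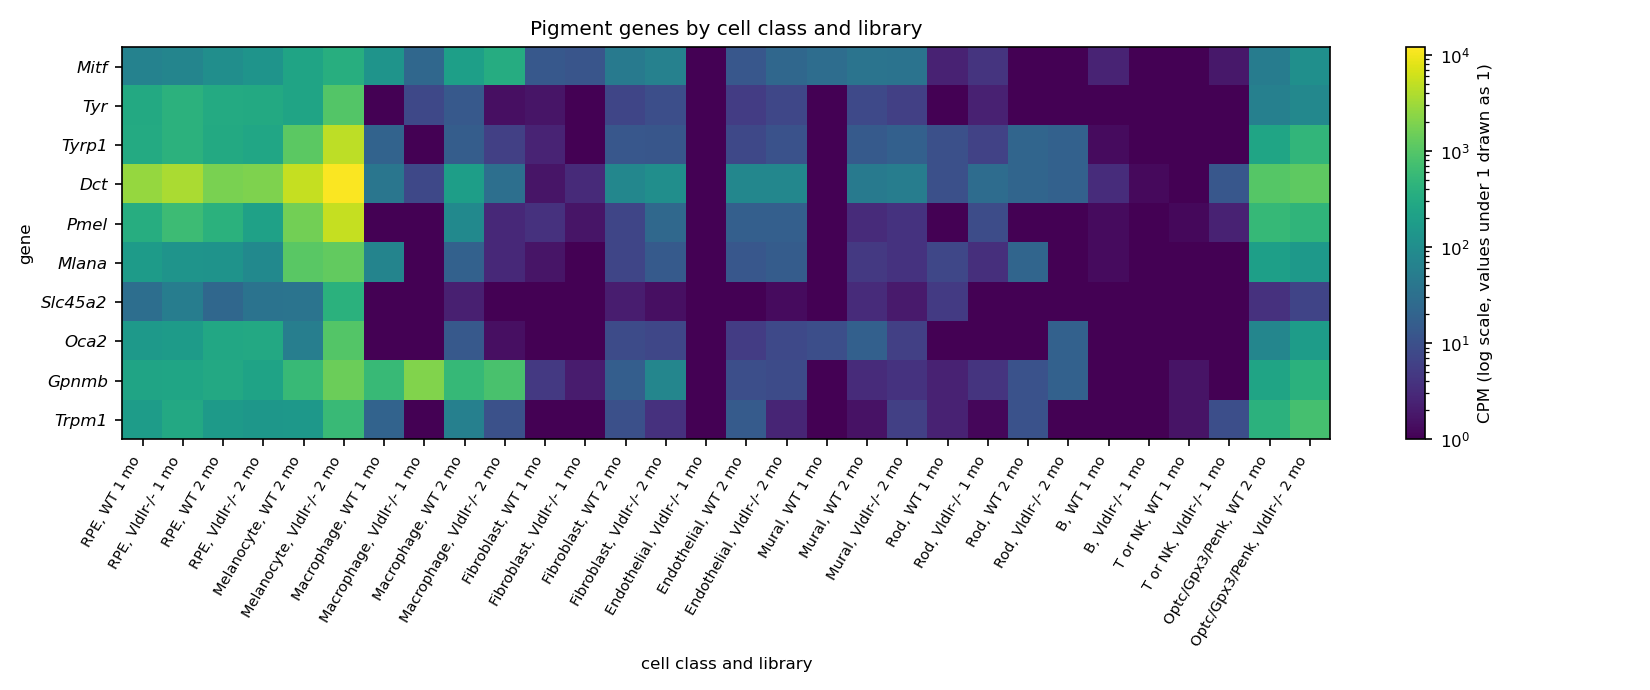
Level of each gene (rows; colour, CPM on a log scale, values under 1 drawn as 1) by cell class and library (columns), for sums of at least 20 barcodes, or 10 for melanocytes. RPE and melanocyte columns are bright in nearly all rows, and in macrophage columns the bright rows are Gpnmb (550 to 2060 CPM) and, at 2 months, Mitf (203 and 330 CPM), with Dct at 192 CPM in WT at 2 months.

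Melanocyte-like barcodes, the pigment cells of the choroid, numbered 13 in WT and 27 in Vldlr-/- at 2 months, with 1 at 1 month in WT. Their markers Ednrb and Pax3 stood at 606 and 110 CPM in WT and at 1545 and 214 CPM in Vldlr-/-, and at 0.891 and 0 CPM and 1.73 and 0 CPM in RPE-like sums. Syt4, Erbb3 and Mcoln3 were also higher than in RPE-like sums, Mcoln3 in WT from 2 UMIs. Sox10 differed less, at 184 against 62.5 CPM in WT and 314 against 86.9 CPM in Vldlr-/-. Kit went the other way in WT, with 0 UMIs against 18.8 CPM in RPE-like sums, and was at 68.8 against 19.2 CPM in Vldlr-/-. In WT 6 of the 10 pigment genes were at least 2-fold higher than in RPE-like barcodes, where 44.1% of tested genes were, and 1 (Oca2, from 3 UMIs) was at least 2-fold lower, as were 12.9% of tested genes. In Vldlr-/- all 10 were at least 2-fold higher, against 32.4% of tested genes, and 0 were lower (16.6% of tested genes). The median log2 ratio over RPE-like barcodes was 1.14 in WT and 2.59 in Vldlr-/-, beside 0.78 and 0.36 over all tested genes. Mlana, Pmel and Tyrp1 stood out from RPE in both. Mlana was 8.79-fold and 14.2-fold higher, Pmel 4.09-fold and 24.1-fold, and Tyrp1 3.77-fold and 18.7-fold.

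Between genotypes, 8 of the 10 genes were at least 2-fold higher in Vldlr-/- melanocyte-like barcodes, against 20.3% of the 865 genes tested there, while 16% of those genes were lower. Of the 8, Slc45a2 (2 and 53 UMIs), Oca2 (3 and 129), Trpm1 (8 and 75) and Tyr (13 and 129) reached the UMI minimum only through Vldlr-/-. Dct, Pmel, Tyrp1 and Gpnmb reached it in WT alone (286, 88, 61 and 31 UMIs). The Vldlr-/- sum was the deeper one (130775 against 54439 UMIs), which eased entry for genes high there. The count is therefore a description only. Tyrp1 stood at 1121 CPM in WT and 4764 CPM in Vldlr-/- (2.08, 1.71 to 2.49), and Tyr at 239 and 986 CPM (2.00, 1.22 to 2.99). Mitf (0.55) and Mlana (0.19) had intervals that include equality. These sums rest on very few cells: 1 barcode gave 63.6% of the Dct and 61.4% of the Pmel UMIs in WT. In Vldlr-/- 1 barcode gave 41.9% of the Tyr UMIs. The class joined a cluster of shallow barcodes (9 and 19, medians of 702 and 916 UMIs) and a cluster of deep, Malat1-rich ones (4 and 8, medians of 10783 and 13520 UMIs). In the shallow ones Tyrp1 stood at 3580 and 3692 CPM, and in the deep ones at 382 and 5091 CPM. Tyr had a lower value in Vldlr-/- in the shallow ones (477 and 131 CPM, 6 and 4 UMIs). In the deep ones it stood at 167 and 1248 CPM (7 and 125 UMIs). Oca2 was also lower in the shallow ones, from 1 UMI in each genotype. Dct, Pmel, Slc45a2, Gpnmb and Trpm1 had higher values in Vldlr-/- in both clusters. The RPE transcript Ttr stood at 606 CPM in WT and 6041 CPM in Vldlr-/- melanocyte-like sums, against 39686 and 37279 CPM in RPE-like ones, and the part of carried RPE RNA in these ratios was not tested.

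Macrophage-like cells held 2 of the genes at substantial levels. Gpnmb, which macrophages of stressed or lipid-laden tissue express, stood at 561 CPM in WT and 2060 CPM in Vldlr-/- at 1 month (29 and 34 barcodes) and at 550 and 821 CPM at 2 months (57 and 55 barcodes). At 1 month 1 barcode gave 84.9% of the Vldlr-/- UMIs, so that ratio (1.87) rests on 1 cell. At 2 months the ratio was 0.58 (0.36 to 0.80), 50% of the UMIs came from 2 barcodes in WT and 6 in Vldlr-/-, and Gpnmb was found in 21.1% (11.4% to 33.9%) and 52.7% (38.8% to 66.3%) of barcodes. The median depth was 6278 and 10723 UMIs, and with barcodes thinned to 1000 UMIs the shares were 12.2% and 30.9%. Mitf stood at 203 and 330 CPM at 2 months (0.70, 0.34 to 1.07) and was spread widely, with 50% of its UMIs in 8 and 12 barcodes. None of the 5 genes tested there was 2-fold higher in Vldlr-/- and 3 were 2-fold lower, against 3.82% and 3.27% of 5162 genes. The 3 were Dct (192 and 30.6 CPM), Pmel (86.7 and 2.92 CPM) and Trpm1 (59.3 and 10.2 CPM), and 1 WT barcode held 88.1%, 89.5% and 84.6% of their WT UMIs. Dct (84 and 21 UMIs) and Pmel (38 and 2) reached the UMI minimum only through WT, and Trpm1 (26 and 7) mostly so. The count of lower genes is therefore a description only. In fibroblast-like cells at 2 months, 2 of the 7 genes that could be tested were at least 2-fold higher in Vldlr-/-, against 2.55% of tested genes, and 0 were lower (1.29%). Pmel was at 7.13 and 24.2 CPM there, from 10 and 50 UMIs. Endothelial-like sums of the same libraries had Pmel at 17.2 and 17.4 CPM, and the part of free RNA in the fibroblast-like ratio was not tested. Fibroblast-like cells had Gpnmb at 16.4 CPM in WT and 73.7 CPM in Vldlr-/- at 2 months (2.14, 1.53 to 2.87), from 23 and 152 UMIs. Endothelial-like sums had Gpnmb at 9.70 and 8.71 CPM. In fibroblast-like cells Pmel and Gpnmb reached the UMI minimum over both libraries only through Vldlr-/-.

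A cluster led by Gpx3, Penk and Optc, which got no cell type name and held 90 WT and 24 Vldlr-/- barcodes at 2 months, also carried pigment transcripts. Dct stood at 1023 and 1154 CPM and Pmel at 543 and 463 CPM there. The Pmel RNA came mostly from a few barcodes: 7 WT and 3 Vldlr-/- barcodes passed the Pmel-rich limits, and without them Pmel stood at 18.8 and 10.2 CPM. The 7 WT barcodes lacked most RNA of the cluster's leading genes. Gpx3, Penk and Optc stood at 0, 47.5 and 0 CPM in them, against 6588, 2550 and 892 CPM in the rest. In the 3 Vldlr-/- barcodes these genes stood at 26.7, 53.5 and 0 CPM, against 3512, 2146 and 2184 CPM. Other pigment genes remained in the rest of the cluster, with Dct at 514 and 584 CPM, Trpm1 at 340 and 584 CPM and Tyrp1 at 187 and 395 CPM. Those Trpm1 levels were above the level in each of the 4 RPE-like sums.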

How the data were processed

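The authors deposited raw UMI counts per gene and barcode, with no normalization, per the file headers, which name Cell Ranger 6.0.2 (1 month) and 7.0.1 (2 months). Per the submitters' processing notes, the tools were Cell Ranger 3.0 and Seurat 4.0, with mm9. Intron counting: not given in the sources used here. Coordinates come from GENCODE M21 (GRCm38).

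A barcode needed 300 genes or more and no more than 30% mitochondrial UMIs (6555 passed). Scrublet (scanpy 1.11.5) marked 26 (0.397%, too few to count as having worked), which were removed. Clustering used 2000 variable genes without the 10 genes and the wider list, 30 components, 15 neighbours and Leiden resolution 1. Clusters were named from marker lists. The naming rules, the split of the melanocyte cluster, the Pmel-rich limits and the choice to keep classes fixed under stricter barcode filters were settled after clusters and class sizes were seen. The genes and lists were chosen with earlier results of these data known.

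Counts were summed per class and library and scaled to CPM. Log2 ratios added 0.5 UMIs and needed 30 UMIs over both libraries. Ratio intervals are exact conditional binomial, levels exact Poisson, shares Clopper-Pearson. Called means at least 2-fold. The calculation was tested on simulated data. All 10 genes were described, and of the wider list the 2 with the largest ratio per subgroup at 2 months. The likeness measure correlated log2(CPM + 5). Software was edgeR 4.0.16 (TMM factors), scipy 1.17.1, pandas 2.3.3 and Python 3.11.15. Alternatives are given in the closing section.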

Additional observations from a re-analysis of the deposited data

Results flagged for a closer look

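In RPE-like barcodes 3 genes had ratios of Vldlr-/- to WT on opposite sides of equality at the 2 ages, with both counting intervals leaving out equality. The difference between the ages was not tested, since each group held 1 library, and age and counting software cannot be told apart. For Pmel the log2 ratio at 2 months minus that at 1 month was -1.66, for Trpm1 it was -0.92 and for Tyrp1 it was -0.62. Without the Pmel-rich barcodes the ratios of Trpm1 and Tyrp1 at 2 months were 0.00 and -0.03. Within the Pmel-rich barcodes they were 0.39 and -0.31. Few barcodes held much of the Pmel and, at 1 month, of the Trpm1 RNA, so the counting intervals of both are too narrow.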

How the results depend on the processing

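No paired analysis was possible because each group held 1 library. The 1-month median (0.41) stayed between 0.24 and 0.44 under 12 alternatives. The 2-month median (-0.12) was -0.29 with barcodes thinned to 1000 UMIs, -0.21 as a mean over barcodes and 0.072 without Pmel-rich barcodes (added after the data were seen). Counts of genes 2-fold apart, 0 throughout otherwise, became 1 lower at 1 month under thinning (Mitf), 1 higher at 1 month with the mean over barcodes (Pmel, 1.06), and 1 lower at 2 months without Malat1-rich barcodes (Pmel, -1.03). Thinning left few UMIs per gene at 1 month. Melanocyte-like over RPE-like medians in WT (1.14) were 2.36 with the pigment genes among the clustering genes, 2.45 without the highest 5% of doublet scores and 2.59 as a mean over barcodes, but 0.55 with at least 1000 genes per barcode (4 barcodes left), and in Vldlr-/- (2.59) they were 3.02, 2.99 and 3.13, and 3.17 under thinning. The cause of these moves was not tested. TMM scaling moved the median of all genes at 1 month from 0.00 to -0.12 and every gene with it, which turned Gpnmb to -0.08. Taking RPE by markers moved that median to -0.14. Subtracting free RNA moved it to 0.19 at 1 month and -0.23 at 2 months. At 1 month thinning turned Mitf (-2.66), Slc45a2 (-0.39), Oca2 (-0.12) and Mlana (0.34). Signs held under every alternative run for Tyr, Tyrp1, Dct and Trpm1 at 1 month and for Mitf, Tyr, Tyrp1, Dct and Slc45a2 at 2 months, but Mitf fell to 0.02 with free RNA subtracted and 0.04 without Malat1-rich barcodes, and Dct ranged from 0.056 to 0.22. Depth limited the 1-month ratios of Mitf and Slc45a2, with under 40 UMIs per library.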
